A study of Homo sapiens with 12 samples.

Results

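Lysosomes are the acidic organelles in which cells break down proteins, sugars, lipids and whole organelles. The genes described here encode 52 parts of that machine: hydrolases of the lumen, proteins of the limiting membrane, subunits of the proton pump, and 2 transcription factors and an autophagy receptor tied to lysosomal supply. They were listed by name, and each was read from the array's probe set with exactly 1 gene symbol, or from the one with the highest mean where a gene had more. All 52 were found among 18404 genes with such a probe set, and 51 passed the filter on dim probe sets that left 13199 genes for testing. The exception was CTSF, which encodes cathepsin F: 1 of 12 arrays exceeded its array's 40th percentile, its group means lay between 4.63 and 4.87, and it was not tested. The other 9 of the 10 cathepsin genes listed were tested.

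The cells were HepG2C3A, a human line from a liver tumour that keeps hepatocyte-like functions, and each Affymetrix Human Gene 1.0 ST array read the total RNA of 1 sample. Culture lasted 96 h in all groups, in a Petri dish or in a microsystem of which the labels give no further description. Treated cells received acetaminophen, an analgesic oxidised in the liver to a reactive quinone imine, for 72 of those hours. The 4 groups of 3 arrays were thus control and treated cells in Petri dishes and control and treated cells in the microsystem. The label for the dose reads none in controls, and the dose in treated cells is not given in the labels used here.

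The deposited values are log2 intensities, in which a difference of 1 is a doubling, and the array medians lay between 5.556 and 5.629. Pairs of arrays within a group correlated at r between 0.991 and 0.995. The third principal component (6.77% of the variance) set microsystem control 3 and microsystem treated 3 apart from the other arrays, at scores of -17.2 and -13.9, so the treatment and culture calls that changed without both of them are named with their value in that fit. The description of Petri treated 3 carries an unexplained asterisk. The labels do not say whether the 3 replicates of a group were separate cultures, and the spread behind every p-value may therefore be technical. Of 10 hepatocyte-derived markers, 9 were found and 8 of them, among them albumin and alpha-fetoprotein, stood above the 97th percentile in every group. The leukocyte marker PTPRC stood between the 8th and the 11th percentile, and no endothelial marker passed the filter (0 of 5). Of the other markers of leukocytes and macrophages, CD14 and MARCO passed, as did 4 of 5 fibroblast and stellate markers, all at group means under the 60th percentile.

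As background, the vacuolar ATPase pumps protons into the lysosome: its V1 sector hydrolyses ATP in the cytosol, and its V0 sector carries protons through the membrane. Cathepsins are the lysosomal proteases, most of them cysteine proteases, and glycosidases, sulfatases and lipid hydrolases complete the digestion. The transcription factors TFEB and TFE3 move to the nucleus when the kinase complex mTORC1 is inactive and bind E-boxes with the core CACGTG near the start of many lysosomal genes. Their activity is set mainly by phosphorylation and location, which an RNA array does not read.

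The starts of some of these genes carry that core, and 6 of the stretches are shown. MCOLN1, ATP6V0D1 and NEU1 rose with treatment, while CTSA, GAA and LAMP1 did not pass the test for it. Windows from 250 bases before to 50 bases after annotated starts (RefSeq, GRCh38.p14) were matched to 39 of the 52 genes. The 6 letters CACGTG, which read the same on both strands, were present in 11 of these 39 genes (28.2%), against 8.77% of 27305 genes with such a window. The longer palindrome TCACGTGA, which contains the first, was present in 6 of 39 (15.4%), against 1.18% of all genes. A gene counted if any of its windows matched. Per window, the core was present in 19.6% of 56 member windows and in 7.26% of all 35116. The core was searched because it is known near the start of many lysosomal genes, so its share here is no separate result. Capitals mark CACGTG below, each stretch is written 5′ to 3′ on the gene's strand, and a match is a description of letters and not of binding. The stretches lie at chr19:7522563-7522623 (plus strand) for MCOLN1, chr16:67481191-67481236 (minus) for ATP6V0D1, chr6:31862922-31862967 (minus) for NEU1, chr20:45891273-45891334 (plus) for CTSA, chr17:80101485-80101575 (plus) for GAA and chr13:113297027-113297238 (plus) for LAMP1.
MCOLN1: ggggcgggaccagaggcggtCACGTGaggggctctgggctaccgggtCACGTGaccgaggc
ATP6V0D1: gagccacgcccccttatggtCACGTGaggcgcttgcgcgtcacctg
NEU1: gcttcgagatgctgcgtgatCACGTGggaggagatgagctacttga
CTSA: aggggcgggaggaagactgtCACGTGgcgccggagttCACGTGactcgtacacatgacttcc
GAA: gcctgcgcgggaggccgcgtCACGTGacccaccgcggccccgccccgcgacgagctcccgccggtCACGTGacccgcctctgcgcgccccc
LAMP1: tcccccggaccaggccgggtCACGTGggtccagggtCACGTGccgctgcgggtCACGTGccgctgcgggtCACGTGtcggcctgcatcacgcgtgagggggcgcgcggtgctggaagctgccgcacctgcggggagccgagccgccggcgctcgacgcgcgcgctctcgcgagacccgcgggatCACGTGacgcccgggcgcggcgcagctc

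MCOLN1 has 2 copies of the longer palindrome, with the first base of the core at -41 and -14 from its annotated start. ATP6V0D1 has 1, with that base at -59. LAMP1 has 6 copies of the core, of which 5 lie whole in the stretch shown and 1 spans the start. The other members with the core are ATP6V0B, ATP6V1G1, CD63, CTSD and CTSF. Under treatment, the core was present in 3 of the 15 windowed genes that rose in at least 1 culture and in 7 of the 23 that were called in neither.

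In Petri dishes, the question was which members moved with acetaminophen. In the linear model over all 12 arrays, a gene was called where limma's adjusted p (Benjamini-Hochberg over 13199 genes) was under 0.05, and a called gene is said to have risen or fallen. Of the 51 members, 10 rose and 0 fell in treated cells, against a background in which 8.38% of all genes tested rose and 1.98% fell (10.4% called). One fall, of CTSS, had an unadjusted p under 0.05, as had falls in 9.08% of all genes. The median log2 difference of the members was 0.17 (range -0.31 to 0.95), against 0.01 over all genes, and 43 of 51 were above 0. Of all 13199 genes, 6953 were above 0. In 26 members the 3 treated arrays lay above the 3 controls and in 1 they lay below, where 34.5% of all genes had such a separation (21.0% above and 13.5% below). Since these are whole cultures, a change in the number of cells that express a gene and a change in its RNA per cell cannot be told apart. The rises were spread over the roles: 1 of 9 cathepsins, 2 of 11 glycosidases and sulfatases, 2 of 6 lipid hydrolases and cofactors, 2 of 6 membrane proteins and 3 of 15 proton pump genes.

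In the microsystem, 15 of the 51 members rose with acetaminophen and 0 fell, against 6.39% of all genes that rose and 2.67% that fell (9.06% called). One fall, of CTSC, had an unadjusted p under 0.05, as had falls in 11.3% of all genes. The median log2 difference was 0.18 (range -0.40 to 1.42), against -0.01 over all genes, and 45 of 51 were above 0. Of all 13199 genes, 6418 were above 0. Treated arrays lay wholly above controls in 25 members and wholly below in 0, where 27.6% of all genes were separated (15.2% above and 12.4% below). Here 3 of 9 cathepsins, 5 of 11 glycosidases and sulfatases, 3 of 6 lipid hydrolases and cofactors, 2 of 6 membrane proteins and 2 of 15 proton pump genes rose. The 2 treatment comparisons share no arrays but share the estimate of the spread, so their calls are not independent. In both, 8 genes rose: CTSV, SMPD1, NEU1, MCOLN1, GUSB, ATP6AP2, ATP6V0D1 and SCARB2. Of all genes, 3.66% rose in both. The 8 members are 8 of the 10 called in Petri dishes and 8 of the 15 called in the microsystem. With only the Petri arrays in the fit, all 10 Petri calls held. With only the microsystem arrays, NEU1, ATP6AP2 and ATP6V0D1 of the 8 lost their microsystem call. A further 2 were called in Petri dishes alone (LIPA and ATP6V1D), 7 in the microsystem alone (CTSB, CTSL, GLA, IDS, MAN2B1, ASAH1 and NPC2), and 34 in neither.

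**Figure D1:**
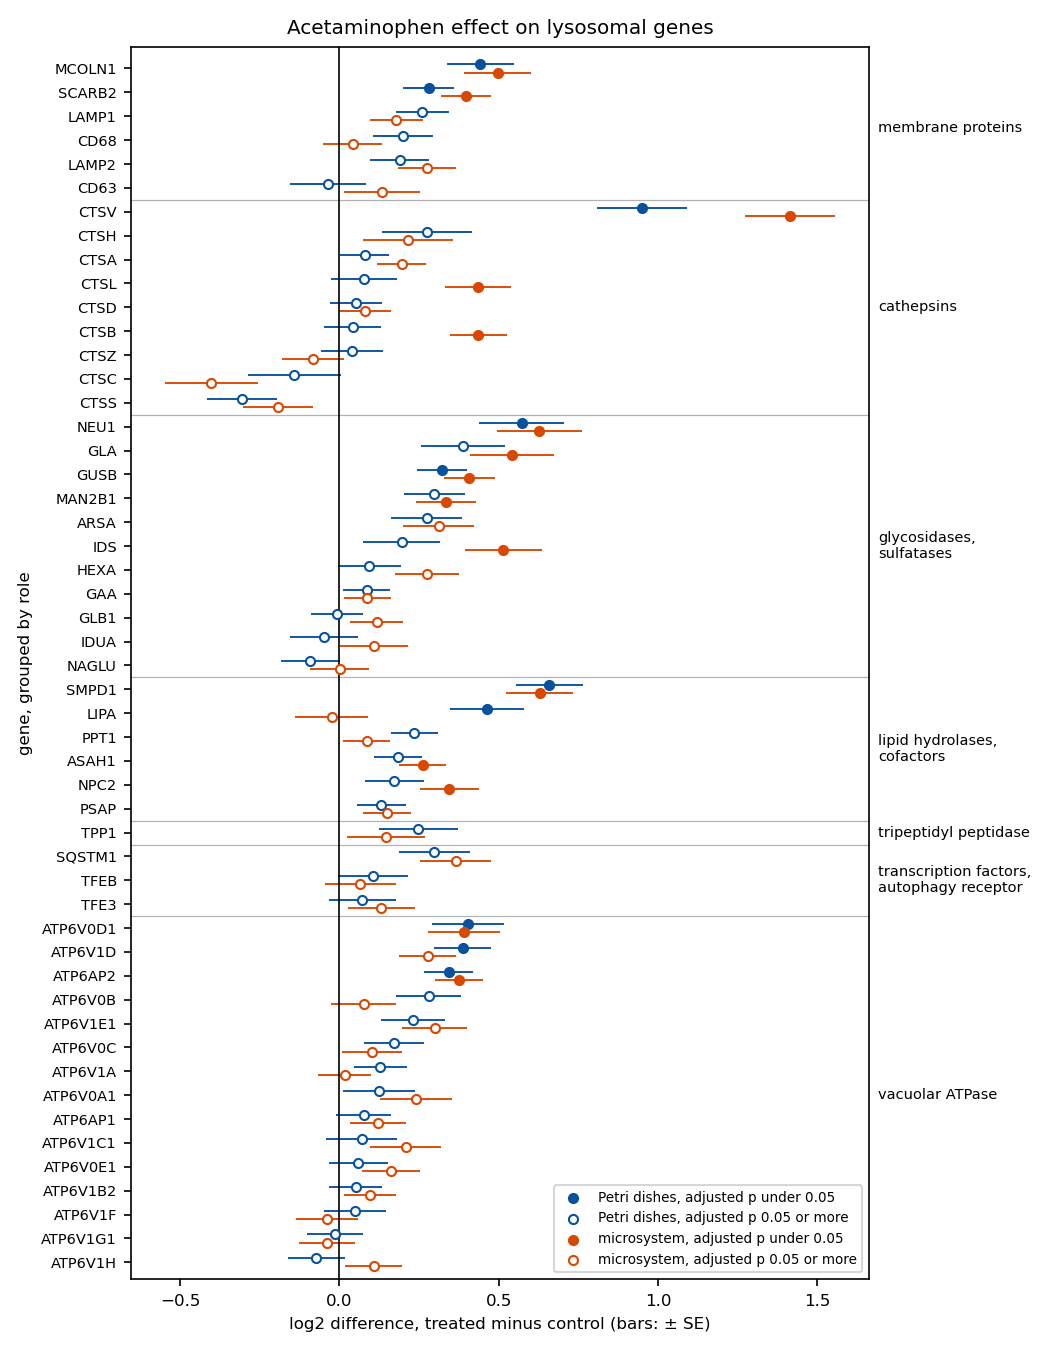
Log2 difference (treated minus control) of the 51 tested genes, grouped by role, in Petri dishes (blue) and in the microsystem (orange); bars are ± SE of the linear model and filled points have an adjusted p under 0.05. Most points lie right of 0, CTSV lies farthest right in both cultures, and filled points are 10 in Petri dishes and 15 in the microsystem.

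The number of calls in Petri dishes depended on single arrays. It was 3 of 51 without Petri control 1, Petri control 2, Petri treated 2 or Petri treated 3. In those fits 8.32%, 5.84%, 5.31% and 5.53% of all genes were called, so the members stood near or below that share. The count lay between 8 and 12 without any other array (6.39% to 11.5% of all genes called). CTSV and SMPD1 alone kept their call throughout. Same-numbered Petri arrays deviated together, and with the replicate number as a block within each culture 18 members were called (17 rose, 1 fell, with 16.5% of all genes called). That fit added LAMP1, GLA, MAN2B1, PPT1, TPP1, SQSTM1 and ATP6V0B to the rises, at adjusted p from 0.0139 to 0.0479, and called the fall of CTSS (adjusted p = 0.0246). In the microsystem the count ranged from 7 (without microsystem treated 2, 3.49% of all genes called) to 16 (without microsystem control 1, 10.9%). It was 8 without both microsystem arrays numbered 3 (5.13% of all genes called) and 6 with only the 6 microsystem arrays in the fit (3.38% of all genes called). CTSV, GUSB and SMPD1 kept their call in each of these fits. ATP6V0D1, ASAH1 and MAN2B1 were the calls lost most often, in 14, 13 and 13 of 22 alternatives. The fall of CTSC was called under the replicate block (adjusted p = 0.0491), with the block within each culture (0.0198), with array weights (0.0426) and without microsystem control 3. With array medians set equal, 14 members rose in Petri dishes and 16 in the microsystem and 0 fell (12.4% and 9.71% of all genes called). Over all genes the share of calls that rose was then 90.7% in Petri dishes, against 80.9% as deposited, and 81.6% in the microsystem, against 70.5%.

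Among the cathepsins, CTSV (probe set 8162652) moved most. It encodes cathepsin V, a cysteine protease closely related to cathepsin L. Its log2 values were 6.21, 6.18 and 6.43 in Petri controls, 7.19, 7.16 and 7.31 in Petri treated arrays, 4.77, 4.87 and 5.45 in microsystem controls and 6.40, 6.42 and 6.52 in microsystem treated arrays. The Petri treated arrays were the highest and the microsystem controls the lowest, while the microsystem treated arrays overlapped with the Petri controls. Acetaminophen raised CTSV by 0.95 ± 0.14 (adjusted p = 0.00117) in Petri dishes, 1.93-fold, and by 1.42 ± 0.14 (adjusted p = 0.000152) in the microsystem, 2.67-fold. In microsystem controls 2 of the 3 arrays exceeded their 40th percentile, so that level is near the dim end of the array and the fold there is uncertain.

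CTSB and CTSL encode the abundant endopeptidases cathepsin B and cathepsin L. CTSB (probe set 8149330) read 11.57, 11.51 and 11.64 in Petri controls, 11.70, 11.54 and 11.61 in Petri treated arrays, 11.14, 10.88 and 10.93 in microsystem controls and 11.31, 11.46 and 11.49 in microsystem treated arrays. Its microsystem controls were the lowest group, and control and treated Petri arrays overlapped. It rose in the microsystem by 0.44 ± 0.09 (adjusted p = 0.0101) and differed in Petri dishes by 0.04 ± 0.09 (adjusted p = 0.801).

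CTSL (probe set 8156228) read 7.90, 7.60 and 7.76 in Petri controls, 7.89, 7.80 and 7.82 in Petri treated arrays, 8.73, 8.43 and 8.34 in microsystem controls and 8.91, 8.98 and 8.92 in microsystem treated arrays. Both microsystem groups lay above both Petri groups, and its treated arrays separated from controls in the microsystem but not in Petri dishes. The rise with acetaminophen in the microsystem was 0.43 ± 0.10 (adjusted p = 0.0213), beside 0.08 ± 0.10 (adjusted p = 0.675) in Petri dishes. Of the annotated pseudogenes, 7 are named for CTSL, so its probe set may read related transcripts and its value is uncertain. Without both microsystem arrays numbered 3, the rises of CTSB and CTSL were 0.37 and 0.36 and were not called (adjusted p = 0.0757 and 0.112).

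The aspartic protease gene CTSD (probe set 7945666), which encodes cathepsin D, read 11.26, 11.14 and 11.27 in Petri controls, 11.24, 11.24 and 11.34 in Petri treated arrays, 10.76, 10.81 and 10.63 in microsystem controls and 10.94, 10.76 and 10.75 in microsystem treated arrays. Treated and control arrays overlapped in both cultures, and the differences were 0.05 ± 0.08 in Petri dishes and 0.08 ± 0.08 in the microsystem. For the dipeptidyl peptidase gene CTSC the log2 difference was -0.14 ± 0.15 (adjusted p = 0.575) in Petri dishes and -0.40 ± 0.15 (adjusted p = 0.102) in the microsystem, and for CTSS, which encodes the antigen-processing protease cathepsin S, -0.31 ± 0.11 (adjusted p = 0.0936) and -0.19 ± 0.11 (adjusted p = 0.28). CTSA, CTSH and CTSZ were not called under treatment in either culture, with differences between -0.08 and 0.28.

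**Figure D2:**
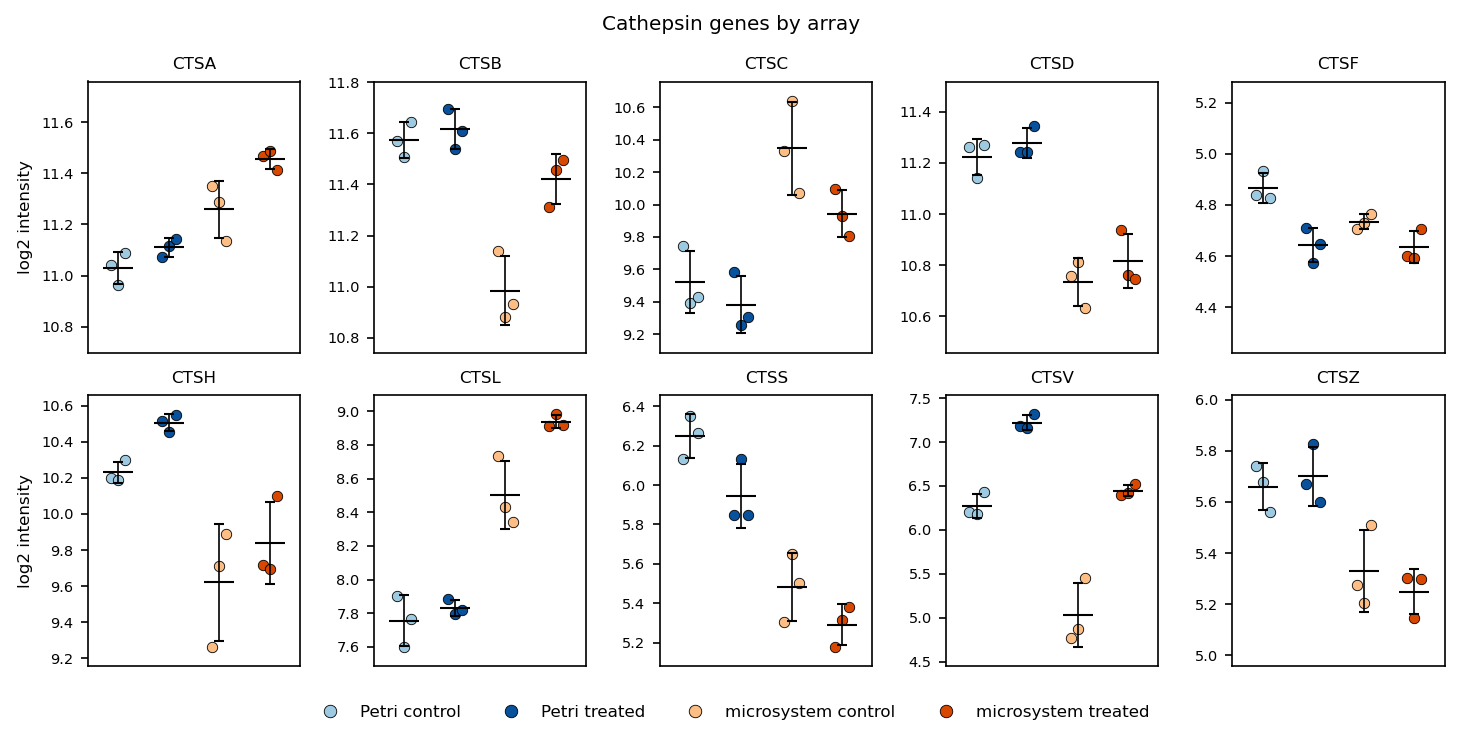
Log2 intensity of the 10 cathepsin genes on each of the 12 arrays by group, with the mean and SD of 3 arrays as bars; panels have their own vertical range of intensities. CTSV was higher in treated cells of both cultures, CTSB and CTSL differed with treatment in the microsystem, and CTSF stayed below 5 on every array.

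The glycosidases strip sugars from glycoproteins and glycolipids. NEU1 (probe set 8179851), which encodes the sialidase of the lysosome, read 10.42, 10.43 and 10.60 in Petri controls, 10.92, 11.10 and 11.14 in Petri treated arrays, 10.99, 11.02 and 10.74 in microsystem controls and 11.68, 11.76 and 11.20 in microsystem treated arrays. The Petri controls were the lowest and the microsystem treated arrays the highest, with the other two groups overlapping between them. Acetaminophen raised it by 0.57 ± 0.13 (adjusted p = 0.0164) in Petri dishes and 0.63 ± 0.13 (adjusted p = 0.013) in the microsystem.

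GLA (probe set 8174076), which encodes the alpha-galactosidase lacking in Fabry disease, read 6.96, 7.06 and 7.29 in Petri controls, 7.21, 7.67 and 7.60 in Petri treated arrays, 8.35, 8.39 and 8.20 in microsystem controls and 8.97, 8.94 and 8.65 in microsystem treated arrays. The treated arrays stood clear of the controls in the microsystem and overlapped with them in Petri dishes. Its rise was called in the microsystem, at 0.54 ± 0.13 (adjusted p = 0.023), and not in Petri dishes, at 0.39 ± 0.13 (adjusted p = 0.0812).

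IDS, which encodes the sulfatase lacking in Hunter syndrome, was read from probe set 8175593 at 8.36, 8.28 and 8.28 in Petri controls, 8.64, 8.46 and 8.40 in Petri treated arrays, 8.16, 7.72 and 7.93 in microsystem controls and 8.22, 8.54 and 8.59 in microsystem treated arrays. The microsystem controls were lowest, and treated arrays lay above controls in both cultures. The rise of 0.51 ± 0.12 (adjusted p = 0.0202) in the microsystem was called, and without both microsystem arrays numbered 3 it was 0.44 and was not (adjusted p = 0.117). A second probe set (8170390) gave 0.28 ± 0.12 (adjusted p = 0.193 over single-symbol probe sets) for the same comparison, so the 2 probe sets differ in the call, and 1 annotated pseudogene is named for IDS.

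GUSB, the beta-glucuronidase gene, rose by 0.32 ± 0.08 (adjusted p = 0.0213) in Petri dishes and 0.41 ± 0.08 (adjusted p = 0.00801) in the microsystem. It is uncertain, because 19 annotated pseudogenes are named for it and it also appears on probe sets with several symbols. MAN2B1, the lysosomal alpha-mannosidase gene, rose in the microsystem by 0.33 ± 0.09 (adjusted p = 0.0438) and differed in Petri dishes by 0.30 ± 0.09 (adjusted p = 0.0636). Without both microsystem arrays numbered 3 the former was 0.26 and was not called (adjusted p = 0.205).

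GLB1 (probe set 8086028) encodes the beta-galactosidase whose activity at suboptimal pH is the usual stain for senescent cells. Its values were 9.18, 9.17 and 9.32 in Petri controls, 9.16, 9.29 and 9.19 in Petri treated arrays, 8.78, 8.99 and 8.88 in microsystem controls and 9.03, 9.05 and 8.92 in microsystem treated arrays. Treated arrays overlapped with the controls in Petri dishes, and in the microsystem 2 of the 3 treated arrays exceeded every control. The differences with acetaminophen, -0.01 ± 0.08 (adjusted p = 0.963) and 0.12 ± 0.08 (adjusted p = 0.391), were not called. The other members of the role, ARSA, HEXA, GAA, IDUA and NAGLU, were called in neither treatment comparison, with differences from -0.09 (NAGLU in Petri dishes) to 0.31 (ARSA, arylsulfatase A, in the microsystem).

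Of the lipid hydrolases, SMPD1 (probe set 7938100), the acid sphingomyelinase gene, read 6.91, 6.69 and 6.81 in Petri controls, 7.27, 7.51 and 7.61 in Petri treated arrays, 6.51, 6.57 and 6.57 in microsystem controls and 7.16, 7.03 and 7.35 in microsystem treated arrays. Treated arrays stood clear of controls in both cultures. Its rise was of like size in the 2 cultures, 0.66 ± 0.10 (adjusted p = 0.00159) in Petri dishes and 0.63 ± 0.10 (adjusted p = 0.00327) in the microsystem, and the difference of the 2 was -0.03 ± 0.15 (95% interval -0.35 to 0.29).

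LIPA (probe set 7934920) encodes the acid lipase that releases cholesterol and fatty acids from lipoproteins in the lysosome. It read 8.70, 8.84 and 8.87 in Petri controls, 9.18, 9.39 and 9.24 in Petri treated arrays, 10.28, 10.57 and 10.16 in microsystem controls and 10.45, 10.38 and 10.12 in microsystem treated arrays. Petri controls were lowest, Petri treated arrays next and both microsystem groups highest and overlapping. Treatment raised LIPA in Petri dishes by 0.46 ± 0.12 (adjusted p = 0.0218), while in the microsystem its difference was -0.02 ± 0.12 (adjusted p = 0.911). ASAH1, the acid ceramidase gene, and NPC2, a cholesterol carrier of the lumen, rose in the microsystem by 0.26 ± 0.07 (adjusted p = 0.0449) and 0.35 ± 0.09 (adjusted p = 0.0354) and differed in Petri dishes by 0.18 ± 0.07 and 0.17 ± 0.09. The ASAH1 rise was 0.27 and was not called (adjusted p = 0.0911) without both microsystem arrays numbered 3. PPT1 and PSAP were called in neither treatment comparison, and the tripeptidyl peptidase gene TPP1 was not either (from 0.09, PPT1 in the microsystem, to 0.25, TPP1 in Petri dishes).

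Among membrane proteins, MCOLN1 (probe set 8025183) encodes the calcium channel mucolipin-1. It read 6.79, 6.94 and 6.93 in Petri controls, 7.14, 7.43 and 7.43 in Petri treated arrays, 7.86, 7.57 and 7.64 in microsystem controls and 8.30, 8.16 and 8.10 in microsystem treated arrays. The 4 groups formed steps with no overlap, from Petri controls through Petri treated and microsystem controls to microsystem treated arrays. Acetaminophen raised it by 0.44 ± 0.11 (adjusted p = 0.0172) in Petri dishes and 0.50 ± 0.11 (adjusted p = 0.0121) in the microsystem. SCARB2, the receptor that carries glucocerebrosidase to the lysosome, rose by 0.28 ± 0.08 (adjusted p = 0.0394) and 0.40 ± 0.08 (adjusted p = 0.00863). Of the 10 Petri calls, that of SCARB2 had the highest adjusted p and was lost in the most alternatives, and its microsystem difference was 0.35 (adjusted p = 0.0555) without both microsystem arrays numbered 3.

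LAMP1 (probe set 7970287), an abundant glycoprotein of the lysosomal membrane, read 9.43, 9.24 and 9.41 in Petri controls, 9.66, 9.60 and 9.61 in Petri treated arrays, 9.68, 9.65 and 9.50 in microsystem controls and 9.86, 9.83 and 9.68 in microsystem treated arrays. Treated arrays lay above controls in Petri dishes. In the microsystem the lowest treated array and the highest control both read 9.68. The differences of 0.26 ± 0.08 (adjusted p = 0.0668) in Petri dishes and 0.18 ± 0.08 (adjusted p = 0.197) in the microsystem missed the threshold. Without both microsystem arrays numbered 3, the unchanged Petri difference passed it (adjusted p = 0.0435). LAMP2, CD63 and CD68 were also not called under treatment, with differences from -0.04 (CD63 in Petri dishes) to 0.28 (LAMP2 in the microsystem).

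**Figure D3:**
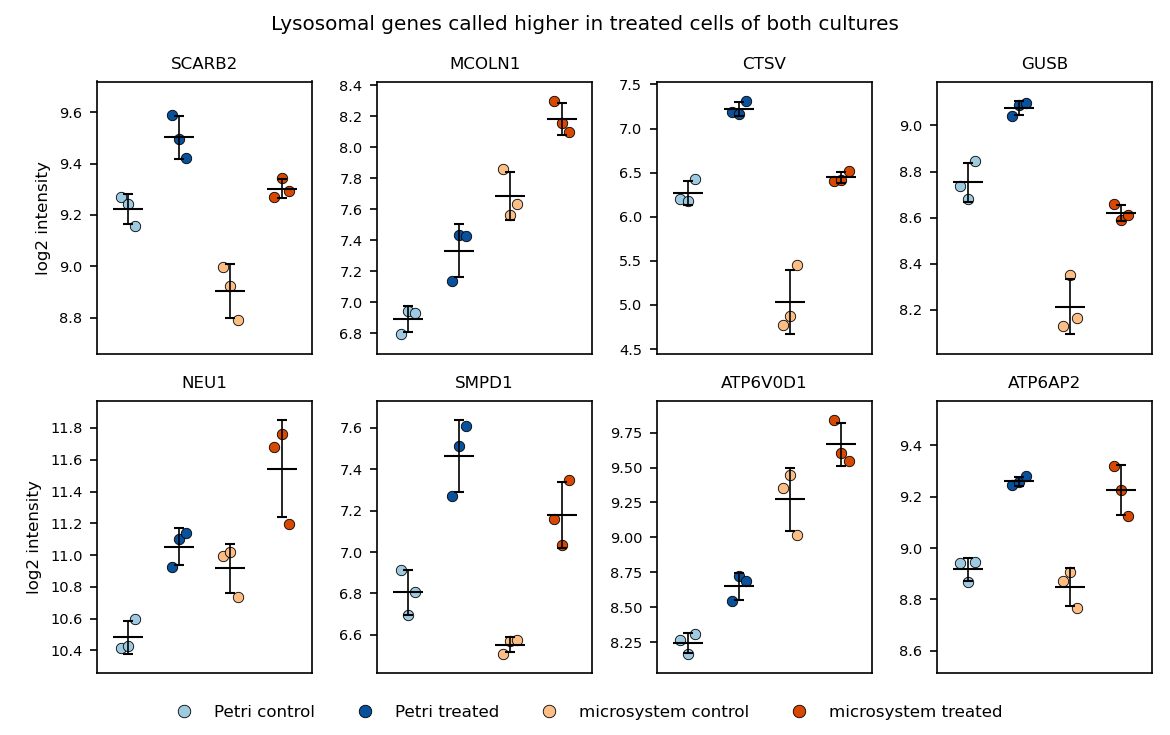
Log2 intensity on each of the 12 arrays of the 8 genes that rose with acetaminophen in both cultures, with the mean and SD of 3 arrays as bars; panels have their own vertical range. Treated arrays lie above the controls of the same culture in each panel, and the position of the microsystem groups relative to the Petri groups differs between genes.

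Of the 15 proton pump genes, 3 rose with acetaminophen in Petri dishes and 2 in the microsystem, where 8.38% and 6.39% of all genes rose. ATP6V0D1 (probe set 8002041), a subunit of the V0 sector, read 8.26, 8.17 and 8.31 in Petri controls, 8.54, 8.72 and 8.69 in Petri treated arrays, 9.35, 9.44 and 9.02 in microsystem controls and 9.84, 9.61 and 9.55 in microsystem treated arrays. As for MCOLN1, the 4 groups did not overlap and stood in the same order. It rose by 0.40 ± 0.11 (adjusted p = 0.0375) in Petri dishes and 0.39 ± 0.11 (adjusted p = 0.0466) in the microsystem, and the latter was 0.32 without both microsystem arrays numbered 3 (adjusted p = 0.109). ATP6AP2, an accessory protein also known as the prorenin receptor, rose by 0.34 ± 0.08 (adjusted p = 0.0118) and 0.38 ± 0.08 (adjusted p = 0.00944). The V1 stalk gene ATP6V1D rose in Petri dishes by 0.39 ± 0.09 (adjusted p = 0.0146) and differed in the microsystem by 0.28 ± 0.09 (adjusted p = 0.0682). The other 12 pump genes had differences between -0.07 (ATP6V1H in Petri dishes) and 0.30 (ATP6V1E1 in the microsystem) and were not called.

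The transcription factor genes and the autophagy receptor were called in neither treatment comparison (0 of 3). TFEB (probe set 8126312) read 6.17, 6.34 and 6.44 in Petri controls, 6.41, 6.52 and 6.34 in Petri treated arrays, 6.17, 6.42 and 5.95 in microsystem controls and 6.29, 6.20 and 6.26 in microsystem treated arrays. TFE3 (probe set 8172520) read 7.72, 7.72 and 7.90 in Petri controls, 7.83, 7.80 and 7.92 in Petri treated arrays, 7.94, 8.04 and 7.63 in microsystem controls and 7.98, 8.12 and 7.92 in microsystem treated arrays. Treated and control arrays of both genes overlapped in each culture. The differences were 0.11 ± 0.11 and 0.07 ± 0.11 for TFEB and 0.07 ± 0.11 and 0.13 ± 0.11 for TFE3. SQSTM1 (probe set 8110569), which encodes the receptor p62 that brings ubiquitylated cargo to autophagosomes, read 10.09, 10.11 and 10.20 in Petri controls, 10.21, 10.45 and 10.63 in Petri treated arrays, 11.20, 10.94 and 10.96 in microsystem controls and 11.46, 11.47 and 11.26 in microsystem treated arrays. Its treated arrays lay above controls in each culture, narrowly in Petri dishes, and both microsystem groups lay above both Petri groups. The treatment differences, 0.30 ± 0.11 (adjusted p = 0.108) and 0.37 ± 0.11 (adjusted p = 0.058), missed the threshold, and the second passed it in 7 of 22 alternatives.

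Whether acetaminophen acted differently in the 2 cultures was tested as the difference of the treatment effects (microsystem minus Petri). By limma 0 of the 51 members passed, against 0.0303% of all genes (4 of 13199). Unadjusted p-values were under 0.05 for 4 members, where 7.35% of all genes had such a value: 0.47 ± 0.20 for CTSV, 0.39 ± 0.13 for CTSB, 0.36 ± 0.15 for CTSL and -0.49 ± 0.16 for LIPA. Their adjusted p-values lay between 0.445 and 0.652, so the calls in 1 culture alone are not shown to differ between cultures. Differences were above 0 for 34 of the 51 members and for 5766 of all 13199 genes. They were above 0 for 11 of 11 glycosidases and sulfatases, from 0.0025 to 0.32, and 0 of these were called. The median over the members was 0.05, against -0.03 over all genes. That median was -0.01 without microsystem control 3 and lay between 0.01 and 0.09 without any other array.

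The second question was how the microsystem compared with Petri dishes in cells without acetaminophen. Here the members moved both ways. In controls 19 of 51 were higher in the microsystem and 14 were lower, against 26.5% and 18.3% of all genes (44.9% called). The median log2 difference was 0.09 (range -1.24 to 1.53), against 0.01 over all genes. It was 0.06 without microsystem control 1, 0.05 without microsystem control 2 and 0.15 without microsystem control 3. The roles went apart: 8 of 15 proton pump genes rose and 0 fell, 3 of 9 cathepsins rose and 6 fell, and 2 of 11 glycosidases and sulfatases rose and 6 fell. Of the lipid hydrolases and cofactors 3 of 6 rose and 0 fell, of the membrane proteins 2 of 6 rose and 2 fell, and SQSTM1 alone of its 3 rose. The 64.7% of members called stands beside the 44.9% of all genes.

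In treated cells 19 of 51 members were higher in the microsystem and 10 lower, against 22.6% and 18.9% of all genes (41.4% called), with a median of 0.11. The arrays of the 2 culture comparisons are separate, but the estimate of the spread is shared. In both, 17 members rose and 9 fell, against 19.2% and 13.9% of all genes, and 15 were called in neither. No gene was called up in one comparison and down in the other. Microsystem and Petri arrays did not overlap for 34 members in controls (19 above, 15 below) and 38 in treated cells (23 above, 15 below), where 52.4% (29.5% above, 22.9% below) and 52.9% (28.1% above, 24.8% below) of all genes were so separated.

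**Figure D4:**
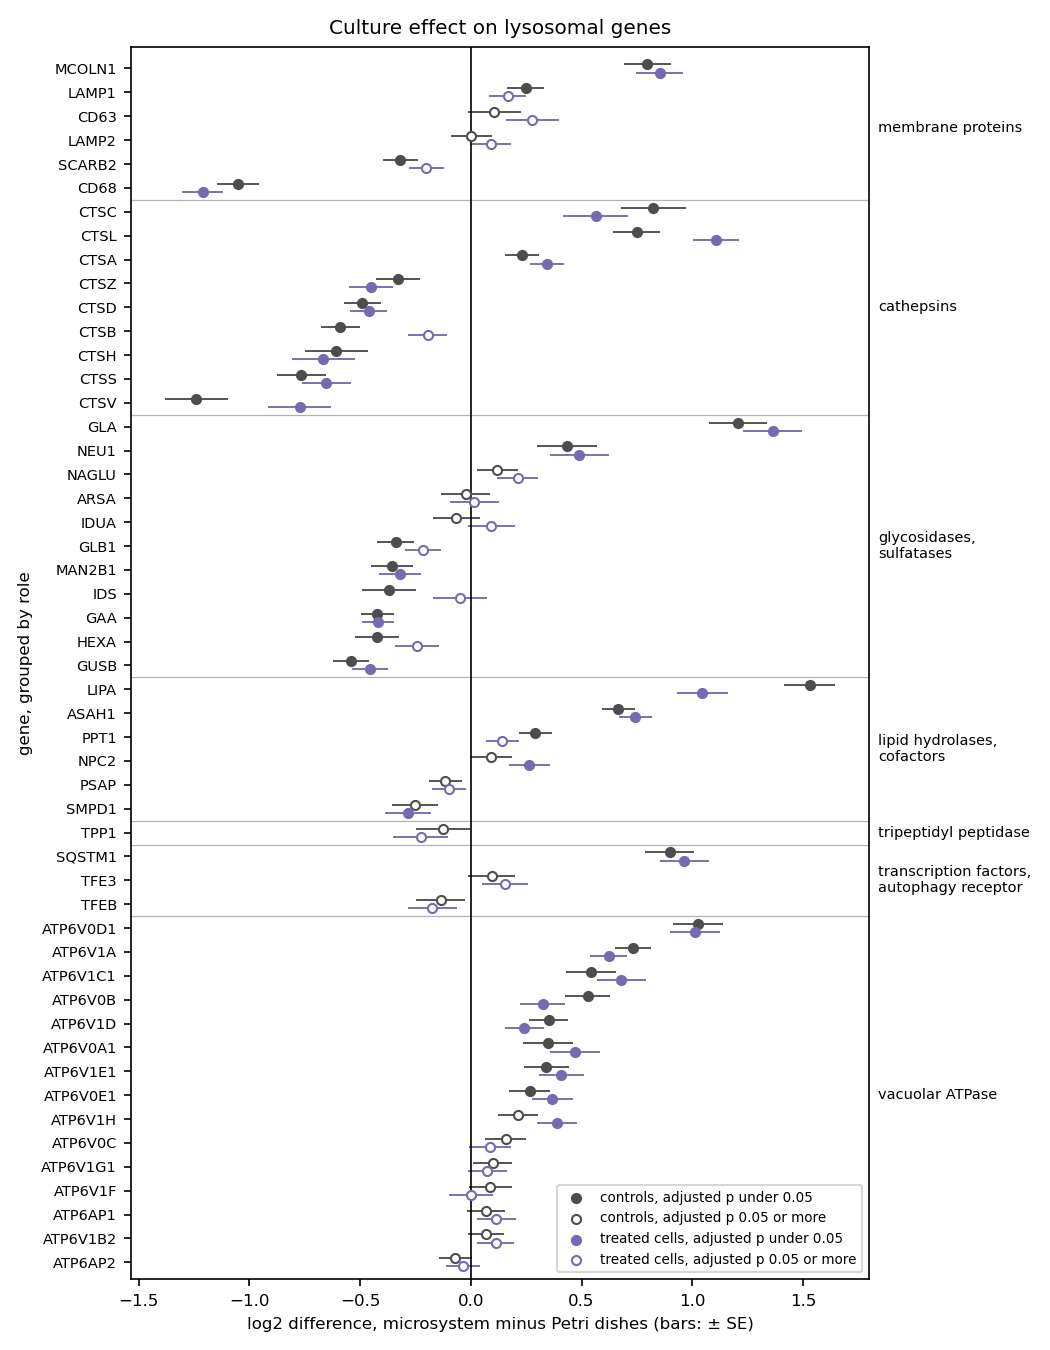
Log2 difference (microsystem minus Petri dishes) of the 51 tested genes, grouped by role, in controls (grey) and treated cells (purple); bars are ± SE and filled points have an adjusted p under 0.05. Proton pump genes lie at or right of 0 except ATP6AP2, while most cathepsins and glycosidases lie left of 0, with LIPA, GLA, CTSC and CTSL far to the right.

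In the proton pump, 4 of 5 V0 genes and 4 of 8 V1 genes were higher in microsystem controls, and 4 of 5 and 5 of 8 in treated cells, with 0 of 2 accessory genes in either. Of all genes, 26.5% were higher in microsystem controls and 22.6% in treated cells of the microsystem. The mean log2 level over the 15 genes was 8.78, 8.83 and 8.90 on the Petri control arrays and 9.20, 9.20 and 9.07 on the microsystem controls. In treated cells it was 8.92, 9.02 and 9.03 in Petri dishes and 9.37, 9.30 and 9.27 in the microsystem. Each microsystem array thus stood above each Petri array in this mean. ATP6V0D1 differed most, by 1.03 ± 0.11 (adjusted p = 1.17e-05) in controls and 1.01 ± 0.11 (adjusted p = 1.44e-05) in treated cells, 2.04-fold and 2.02-fold. The catalytic subunit gene ATP6V1A was higher by 0.73 ± 0.08 (adjusted p = 1.45e-05) and 0.62 ± 0.08 (adjusted p = 6.38e-05).

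The V1 gene ATP6V1C1, whose subunit links the 2 sectors, was higher by 0.54 ± 0.11 in controls and 0.68 ± 0.11 in treated cells, and the proton ring gene ATP6V0B by 0.53 ± 0.10 and 0.32 ± 0.10. ATP6V0A1, ATP6V0E1, ATP6V1D and ATP6V1E1 rose in both comparisons, by 0.24 to 0.47, and ATP6V1H was called in treated cells only (0.21 ± 0.09 (adjusted p = 0.0721) and 0.39 ± 0.09 (adjusted p = 0.0035)). ATP6V0E1 and ATP6V1E1 have 4 and 3 pseudogenes named for them and are uncertain. The genes called in neither comparison were ATP6V0C, ATP6V1B2, ATP6V1F, ATP6V1G1, ATP6AP1 and ATP6AP2, within -0.07 and 0.16. ATP6AP2, which rose with acetaminophen in both cultures, therefore did not pass for culture, where its differences were -0.07 ± 0.08 and -0.04 ± 0.08.

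**Figure D5:**
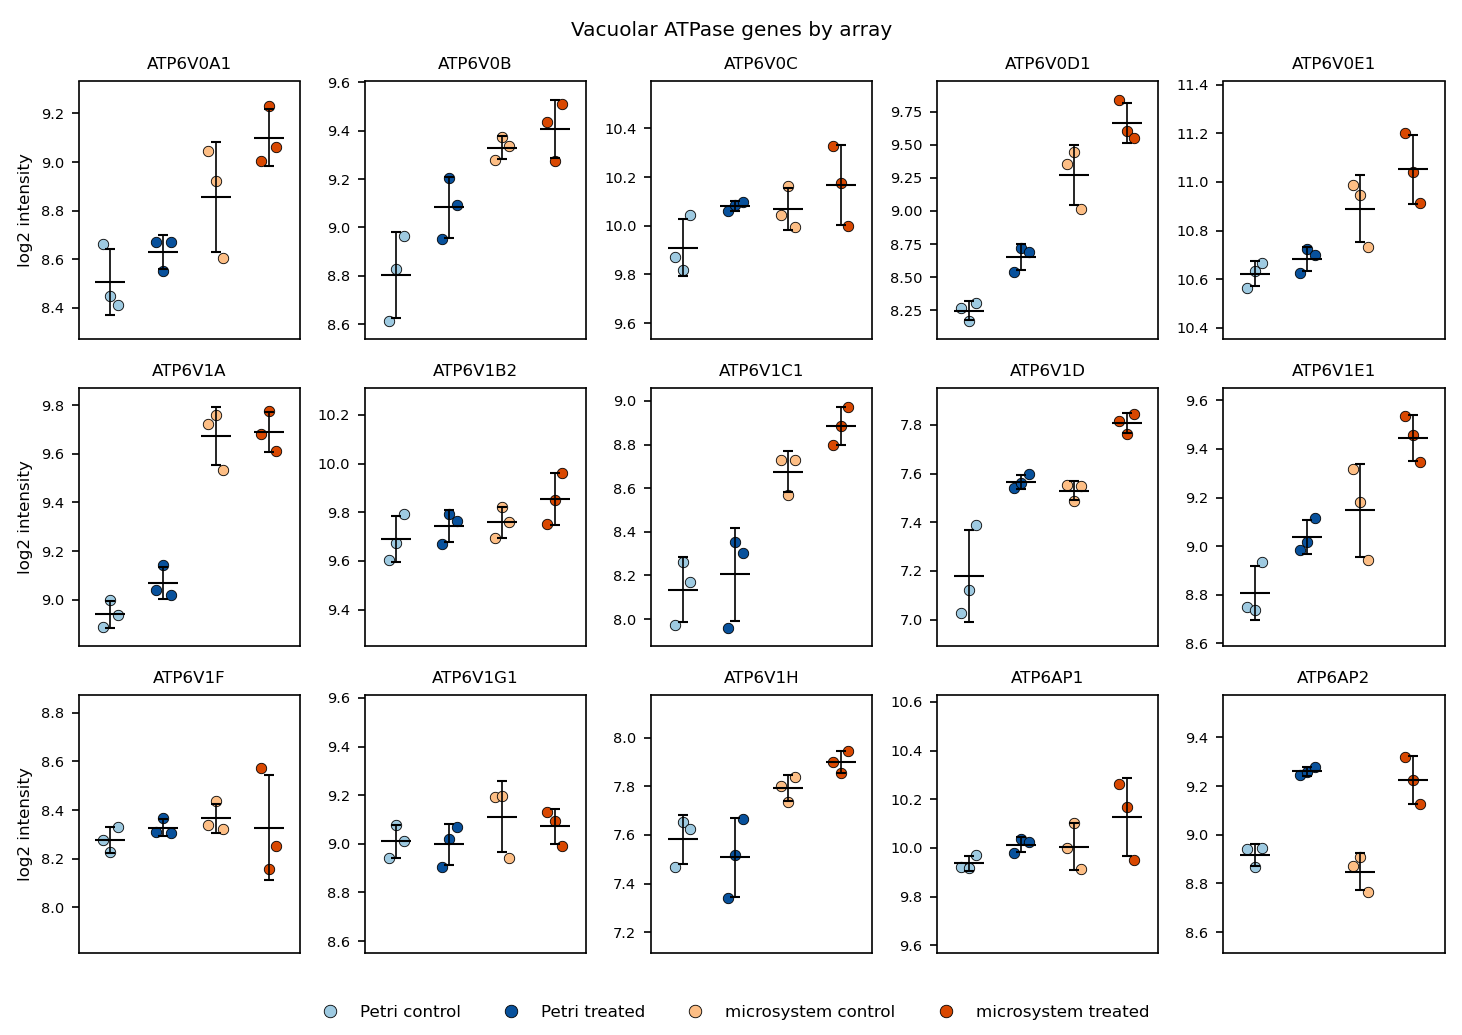
Log2 intensity of the 15 vacuolar ATPase genes on each of the 12 arrays by group, with the mean and SD of 3 arrays as bars; panels have their own vertical range. ATP6V0D1, ATP6V1A and ATP6V1C1 separate microsystem from Petri arrays without overlap, ATP6AP2 separates treated from control arrays, and ATP6V1B2 and ATP6V1G1 do neither.

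The cathepsin genes were divided. Those of the cysteine proteases CTSV, CTSS, CTSH and CTSZ and of the aspartic protease CTSD were lower in the microsystem with and without acetaminophen, while CTSL, CTSC and CTSA were higher in both. CTSV was lower by 1.24 ± 0.14 (adjusted p = 1.59e-05) in controls and 0.77 ± 0.14 (adjusted p = 0.000727) in treated cells, a level 2.36-fold and 1.71-fold lower. CTSD was lower by 0.49 ± 0.08 (adjusted p = 0.000341) and 0.46 ± 0.08 (adjusted p = 0.000598), CTSH, which encodes an aminopeptidase, by 0.61 ± 0.14 and 0.67 ± 0.14, and CTSS by 0.76 ± 0.11 and 0.65 ± 0.11.

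CTSL was higher by 0.75 ± 0.10 (adjusted p = 7.35e-05) in controls and 1.11 ± 0.10 (adjusted p = 3.65e-06) in treated cells, 1.68-fold and 2.15-fold. CTSC was higher by 0.82 ± 0.15 and 0.56 ± 0.15, and CTSA, the protective protein of NEU1 and GLB1, by 0.23 ± 0.08 and 0.35 ± 0.08. CTSB was lower in controls, by 0.59 ± 0.09 (adjusted p = 0.00014), and in treated cells its difference of -0.20 ± 0.09 (adjusted p = 0.0949) was not called. The treatment difference in the microsystem and the culture difference in controls share the microsystem control arrays. For CTSV and CTSB, and likewise for GUSB, MAN2B1, IDS and SCARB2, the opposite signs of these differences are therefore not independent of each other.

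Among glycosidases, GLA was higher in the microsystem by 1.21 ± 0.13 (adjusted p = 1.07e-05) in controls and 1.36 ± 0.13 (adjusted p = 4.5e-06) in treated cells, 2.31-fold and 2.57-fold. Its Petri and microsystem arrays did not overlap. NEU1 was higher by 0.43 ± 0.13 and 0.49 ± 0.13. By contrast GUSB was lower by 0.54 ± 0.08 and 0.46 ± 0.08, GAA, the glycogen-degrading acid alpha-glucosidase gene, by 0.42 ± 0.07 and 0.42 ± 0.07, and MAN2B1 by 0.36 ± 0.09 and 0.32 ± 0.09. HEXA, GLB1 and IDS fell in controls, by 0.42 ± 0.10, 0.34 ± 0.08 and 0.37 ± 0.12, and were not called in treated cells. Their differences there were -0.24, -0.21 and -0.05. With the replicate block, HEXA and GLB1 were called in treated cells too (limma adjusted p = 0.0449 and 0.0497). The second IDS probe set did not pass in controls (-0.23 ± 0.12, adjusted p = 0.161). NAGLU, IDUA and ARSA were called in neither.

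LIPA had the largest difference of all members, 1.53 ± 0.12 (adjusted p = 5.92e-07) in controls, a 2.89-fold higher level, with 1.04 ± 0.12 (adjusted p = 1.32e-05) in treated cells. No Petri array overlapped with a microsystem array. ASAH1 was higher by 0.67 ± 0.07 (adjusted p = 1.32e-05) and 0.74 ± 0.07 (adjusted p = 6.08e-06), PPT1 in controls by 0.29 ± 0.07 and NPC2 in treated cells by 0.26 ± 0.09. SMPD1 was lower, by -0.28 ± 0.10 (adjusted p = 0.0422) in treated cells and -0.25 ± 0.10 (adjusted p = 0.0628) in controls, of which the first alone was called. PSAP, the precursor of the saposins that help lipid hydrolases, was called in neither culture comparison.

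Of the membrane proteins, MCOLN1 was higher in the microsystem by 0.80 ± 0.11 (adjusted p = 4.77e-05) in controls and 0.85 ± 0.11 (adjusted p = 3.27e-05) in treated cells, and LAMP1 in controls by 0.25 ± 0.08 (adjusted p = 0.0271), beside 0.17 ± 0.08 (adjusted p = 0.127) in treated cells. CD68 (probe set 8004510), a heavily glycosylated relative of LAMP1 that macrophages express strongly, read 9.10, 9.22 and 9.32 in Petri controls, 9.30, 9.38 and 9.56 in Petri treated arrays, 8.15, 8.17 and 8.16 in microsystem controls and 8.22, 8.06 and 8.33 in microsystem treated arrays. Every microsystem array lay below every Petri array, by about a log2 unit. It fell by 1.05 ± 0.09 (adjusted p = 2.01e-06) in controls and 1.21 ± 0.09 (adjusted p = 7.85e-07) in treated cells. The macrophage marker CD14 fell too, by 0.43 ± 0.11 and 0.66 ± 0.11 (adjusted p = 0.00757 and 0.000492), while MARCO was not called and PTPRC, CD163 and CSF1R did not pass the filter. PTPRC stood at group means between 2.56 and 2.64. Whether other cell types had a part in the CD68 result was not tested beyond these values. SCARB2 was lower in controls, by 0.32 ± 0.08 (adjusted p = 0.00504), with -0.20 ± 0.08 (adjusted p = 0.0564) in treated cells, and LAMP2 and CD63 were called in neither comparison.

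SQSTM1 was higher in the microsystem by 0.90 ± 0.11 (adjusted p = 3.09e-05) in controls and 0.96 ± 0.11 (adjusted p = 1.96e-05) in treated cells, and 1 annotated pseudogene is named for it. TFEB and TFE3 were called in neither (-0.13 ± 0.11 and -0.17 ± 0.11 for TFEB, 0.09 ± 0.11 and 0.15 ± 0.11 for TFE3). In controls 24 of the 33 calls held in every alternative tried, and CTSS held in all but the 60th percentile filter, which left it untested. CTSA, CTSZ, IDS, LAMP1, NEU1, ATP6V0A1, ATP6V0E1 and ATP6V1E1 lost theirs in at least 1, at adjusted p up to 0.121. In treated cells 21 of 29 held in every alternative, CTSS and CTSZ held in all but that filter, which left both untested, and those lost in some alternative were MAN2B1, NEU1, NPC2, SMPD1, ATP6V0B and ATP6V1D, at adjusted p up to 0.172. Without both microsystem arrays numbered 3, 33 members were called in controls, the same genes as with them. In treated cells 29 were called, of which 27 were the same: ATP6V0B (0.27, adjusted p = 0.0808) and ATP6V1D (0.22, adjusted p = 0.109) were lost, and CD63 (0.33, adjusted p = 0.0175) and HEXA (-0.29, adjusted p = 0.0486) were added.

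Other lysosomal genes, in 6 lists that do not contain the members, were counted in the same fit. Of 93 tested, 16 rose and 0 fell with acetaminophen in Petri dishes, 17 rose and 0 fell in the microsystem, 33 rose and 16 fell with culture in controls, and 32 rose and 17 fell with culture in treated cells. The rises were 17.2%, 18.3%, 35.5% and 34.4% of these genes, against 8.38%, 6.39%, 26.5% and 22.6% of all genes. The falls with culture were 17.2% and 18.3%, close to the 18.3% and 18.9% of all genes. Hydrolases and cofactors outside the members rose with acetaminophen in 6 of 16 cases in Petri dishes, led by the phospholipase gene PLA2G15 (0.58 ± 0.09), the sialic acid esterase gene SIAE (0.52 ± 0.08) and GM2A (0.51 ± 0.09), the activator that presents ganglioside to hexosaminidase. In the microsystem 5 of 16 rose, led by LGMN (0.69 ± 0.08), the asparaginyl endopeptidase that processes cathepsins, SIAE (0.48 ± 0.08) and the sulfatase gene GALNS (0.46 ± 0.10). Other membrane proteins rose in 3 of 17 cases in Petri dishes and in 5 of 17 in the microsystem. They included LAMP3 (0.52 ± 0.11 and 0.95 ± 0.11) and the chloride transporter subunit gene OSTM1 (0.50 ± 0.10 and 0.62 ± 0.10).

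With culture, 11 of 17 of these membrane proteins were higher in microsystem controls and 2 were lower, and 13 and 1 in treated cells, where 26.5% and 18.3% of all genes were higher and lower in controls and 22.6% and 18.9% in treated cells. The cystine exporter gene CTNS led in both comparisons (1.01 ± 0.10 and 1.12 ± 0.10). Of 5 further pump subunits that were tested, 2 were higher in both: the V0 genes ATP6V0E2 (1.66 ± 0.18 and 1.32 ± 0.18) and ATP6V0A2 (1.11 ± 0.08 and 0.80 ± 0.08), while ATP6V1C2 was lower in treated cells (-0.53 ± 0.15). Genes that sort enzymes to lysosomes were higher in 11 of 19 cases in controls and lower in 1, and higher in 8 and lower in 3 in treated cells, with the tethering genes VPS33A (0.93 ± 0.08 and 0.95 ± 0.08) and VPS18 (0.88 ± 0.09 and 0.84 ± 0.09) in front. With acetaminophen 3 of 19 rose in Petri dishes and 2 in the microsystem, with M6PR, a mannose 6-phosphate receptor gene, called in both (0.28 ± 0.08 and 0.35 ± 0.08). These are 15.8% and 10.5% of the sorting genes, against 8.38% and 6.39% of all genes.

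Of 5 inhibitors of cathepsins, CSTA, which encodes the cytosolic inhibitor stefin A, rose with acetaminophen in Petri dishes (0.90 ± 0.14) and in the microsystem (0.64 ± 0.14), from control means between the 39th and the 45th percentile. CSTB, its relative stefin B, was lower in the microsystem by 0.99 ± 0.12 in controls and 0.83 ± 0.12 in treated cells, as was SERPINB1 by 0.62 ± 0.13 and 0.63 ± 0.13. Of 31 genes that control TFEB or autophagy, 2 rose with acetaminophen in Petri dishes (WIPI1, 0.39 ± 0.08, and MTOR, 0.39 ± 0.10) and 4 in the microsystem, led by FLCN (0.37 ± 0.09). These are 6.45% and 12.9% of the list, against 8.38% and 6.39% of all genes. With culture, 4 rose and 9 fell in controls (12.9% and 29.0%, against 26.5% and 18.3% of all genes) and 4 rose and 6 fell in treated cells (12.9% and 19.4%, against 22.6% and 18.9%). The mTORC1 scaffold gene RPTOR was higher (0.69 ± 0.08 and 0.62 ± 0.08) and FNIP2, a partner of folliculin, lower (-0.80 ± 0.16 and -0.93 ± 0.16) in the microsystem.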

How the data were processed

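RNA of HepG2C3A cells was measured on 12 arrays, in 4 groups of 3 taken from the sample titles. The deposited values are log2 intensities of 32321 probe sets, which the authors made with Affymetrix Expression Console by robust multi-array average (background correction, quantile normalization and a median polish), per the submitters' processing notes. This compresses large differences, so fold changes may be understated. Neither versions nor array library files nor the build are given in the sources used here, and positions are those of RefSeq promoters (GRCh38.p14) alone. The values were used without new normalization.

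Probe sets were named through the platform's annotation: 19158 had 1 symbol, 1388 several and 11775 none here. Of 18404 genes, 637 had several probe sets and kept the one with the highest mean. Genes with at least 3 arrays above that array's 40th percentile were tested (13199). In limma 3.58.1 under R 4.3.3, the model had a coefficient for each group and used all 12 arrays, with 8 residual and 5.35 prior degrees of freedom and two-sided p-values adjusted by Benjamini-Hochberg. Differences are followed by ± the SE of that fit. Other tools were Python 3.11.15, pandas 2.3.3 and matplotlib 3.10.9. The precision is limited by the number of arrays.

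The members, the lists of other lysosomal genes and the markers were chosen with earlier results of these data known, so no test over a list was made. Every member may be named. Values on each array are given for LAMP1, CTSD, CTSB, CTSL, CTSV, GLB1, TFEB, TFE3, MCOLN1, SQSTM1 and the 6 called members per comparison with the largest difference, and per other list and comparison up to 3 called genes are named.

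Deviations of same-numbered arrays from their group means correlated across genes at r = 0.48, 0.19 and 0.31 for treatment in Petri dishes, all above 0.1, at 0.11, 0.07 and 0.60 for treatment in the microsystem, at 0.18, -0.03 and 0.13 for culture in controls and at 0.14, -0.14 and 0.13 for culture in treated cells. The alternatives were a replicate block, the same within each culture, only the arrays compared, quantile normalization, equal array medians, a filter at the 60th percentile or none, averaging a gene's probe sets, array weights and leaving out each array. Leaving out both microsystem arrays numbered 3 was added after the data were seen. Tested on simulated data with 13199 genes, the fit recovered 68% and 96% of genes changed 1.5-fold and 2-fold for treatment in Petri dishes, and 70% and 94% for treatment in the microsystem. The noise simulated was independent between arrays.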

Additional observations from a re-analysis of the deposited data

How the results depend on the processing

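No member that was called changed direction under any alternative tried. For treatment in Petri dishes the 10 calls became 18 with the replicate block within each culture (16.5% of all genes called). They became 25 with array weights (24 rose, 1 fell, with 27.3% of all genes called). When each array was left out they ranged from 3 to 12 (5.31% to 11.5% of all genes called). For treatment in the microsystem the 15 calls became 6 with only the arrays compared and 8 without both microsystem arrays numbered 3. In those fits 3.38% and 5.13% of all genes were called. When each array was left out the calls ranged from 7 to 16 (3.49% to 10.9% of all genes called). For culture, leaving out each array gave 26 to 35 calls in controls (33 with all) and 24 to 31 in treated cells (29 with all). Of all genes, 37.1% to 45.7% were then called in controls and 33.4% to 42.8% in treated cells. The difference of treatment effects gave 0 calls in every alternative run, and could not be run with only the arrays compared, since it needs all groups. Elsewhere same-numbered arrays did not all deviate together. The replicate block over all arrays gave 11, 16, 33, 34 and 0 calls for the 5 comparisons in this order. Of all genes, 12.9%, 12.0%, 47.6%, 44.1% and 0.136% were then called. The block within each culture gave 22, 34 and 35 for the microsystem treatment and the 2 culture comparisons, with 16.0%, 50.7% and 47.6% of all genes called. The cause of these changes was not tested. Calls kept in every alternative were 2 of 10, 3 of 15, 24 of 33 and 21 of 29, with CTSS and CTSZ untested under the 60th percentile filter. Limits are 3 arrays per group, dim probe sets (CTSF, and CTSV in microsystem controls), genes with 3 or more pseudogenes named for them (GUSB, CTSL, ATP6V0C, ATP6V0E1, ATP6V1E1 and ATP6V1G1), whose probe sets were not checked for shared sequence, and RNA levels that do not read enzyme activity or the location of TFEB.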
